A study of Mus musculus with 4 samples.

Results

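Genes around p53 and inhibitors of the cell cycle, 10 in all, were followed in hair follicle stem cells of mice: the transcription factor genes Trp53 and Trp63, the p53 ubiquitin ligase gene Mdm2, and the 7 genes that encode inhibitors of cyclin-dependent kinases (CDKs), Cdkn1a, Cdkn1b, Cdkn1c, Cdkn2a, Cdkn2b, Cdkn2c and Cdkn2d. They were taken by gene symbol from a table of 55401 genes, all 10 were found, and 8 of them were among the 14479 genes abundant enough to test. RNA-seq had been made from such cells of C57BL/6 mice in anagen, when the follicle grows a new hair. Animals ate a normal diet or had eaten a high-fat diet for 4 months, with 2 libraries per diet; the labels give no age, sex or genotype beyond the strain, and do not say how the cells were isolated or whether a library came from 1 mouse or several. The spread that p-values measure is therefore that between the 2 libraries of a diet and may be technical. The edgeR test shares it in part over all genes.

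The p53 protein is held at a low level by Mdm2 and is stabilised by DNA damage and other stress, after which it activates arrest and repair genes, Cdkn1a and Mdm2 among them. Its relative p63 is the main transcription factor of basal keratinocytes and is needed for stratified epithelium. CDK inhibitors fall into the Cip/Kip family (Cdkn1a for p21, Cdkn1b for p27, Cdkn1c for p57), which binds cyclin-CDK complexes broadly, and the INK4 family (Cdkn2a for p16, Cdkn2b for p15, Cdkn2c for p18, Cdkn2d for p19), which binds Cdk4 and Cdk6. Cdkn2a also encodes the p53 activator ARF from an overlapping reading frame. In the follicle, stem cells of the bulge are mostly quiescent and divide early in anagen, and Cdkn2a and Cdkn2b are widely used as markers of ageing and senescence.

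Promoter sequence is shown for Cdkn1a and Mdm2, the pair of p53 targets among these genes, and for Cdkn2b, which had the largest fold difference. RefSeq windows of 300 bases (build GRCm38.p6, 250 bases before to 50 after an annotated start) were found for 8 of the 10 genes, all but Trp63 and Cdkn1c, and the stretches below are the parts outside annotated exons, written 5' to 3' on the strand of the gene. Capitals mark matches on either strand. The motif for Sp1 was the GC box GGGCGG, and that for NF-Y was the box CCAAT. For the cell cycle, the E2F motif TTTCCCGC was searched, and so was the CHR element, spelled TTTGAA. For the core promoter the TATA motif was spelled TATAAA. For signalling, the SMAD box was GTCTAGAC, and the AP-1 motif, with any base in its middle, was TGANTCA. A p53 half-site has 10 bases, and a full p53 site was a pair of adjacent half-sites, 20 bases in all, with at most 1 mismatch.
Cdkn1a chr17:29090729-29090975 (plus strand): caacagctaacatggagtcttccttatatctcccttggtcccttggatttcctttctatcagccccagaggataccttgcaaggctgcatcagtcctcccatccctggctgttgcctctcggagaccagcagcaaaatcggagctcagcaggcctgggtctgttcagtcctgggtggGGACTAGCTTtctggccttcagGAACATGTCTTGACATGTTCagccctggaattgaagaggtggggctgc
Mdm2 chr10:117710759-117711008 (minus strand): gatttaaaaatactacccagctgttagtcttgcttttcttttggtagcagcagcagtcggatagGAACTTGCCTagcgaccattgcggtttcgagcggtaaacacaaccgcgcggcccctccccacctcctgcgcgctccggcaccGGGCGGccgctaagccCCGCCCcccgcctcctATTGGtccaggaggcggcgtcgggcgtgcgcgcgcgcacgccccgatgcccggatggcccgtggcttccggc
Cdkn2b chr4:89311040-89311282 (minus strand): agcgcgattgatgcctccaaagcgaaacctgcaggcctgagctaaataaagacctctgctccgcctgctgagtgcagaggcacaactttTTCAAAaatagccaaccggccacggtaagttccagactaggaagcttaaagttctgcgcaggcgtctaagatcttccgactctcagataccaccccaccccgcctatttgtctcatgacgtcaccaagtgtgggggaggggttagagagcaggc
The Cdkn1a stretch, which lies before the upstream of its 2 RefSeq starts, held a full p53 site, a match found in 0.0883% of all 32851 windows, and a further half-site. Mdm2 held 1 half-site, as 8.36% of windows did, 2 GC boxes (35.7% of windows had at least 1) and 1 CCAAT box (37.4%). Cdkn2b held 1 CHR element (17.9%) in the stretch shown. A match describes letters in a window and shows no binding.

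Total counts ran from 8590570 to 9940848 per library. All 10 listed markers of bulge stem cells, Cd34, Lgr5 and Sox9 among them, had counts, and their summed level was 14647 and 16607 CPM (counts scaled to library size with TMM factors) on the normal diet against 20418 and 18958 CPM on the high-fat diet. The sum followed the abundant Krt5, Krt14, Krt15 and Itga6, which had positive log2 fold changes, whereas Cd34, Lgr5, Sox9, Lhx2, Nfatc1 and Tbx1, 6 of the 10, had negative ones between -0.49 (Lhx2) and -0.13 (Lgr5). Krt14 was higher by edgeR, and the other 9 were not called. All 8 suprabasal epidermal markers had counts too, at 1217 and 2880 CPM against 3975 and 4938 CPM, and none was at 0 in every library. Fibroblast markers summed to 45.0 and 56.5 CPM on the normal diet and 80.7 and 64.7 CPM on the high-fat diet. All 6 had positive log2 fold changes, and 0 were called. Immune markers summed to 17.8 and 37.7 CPM against 40.9 and 47.7 CPM, and endothelial markers to 10.2 and 11.8 CPM against 17.6 and 20.7 CPM. Sebaceous gland markers summed to 546 and 461 CPM against 440 and 448 CPM, and all 4 tested had negative log2 fold changes, with 0 called. Hair matrix markers summed to 34.7 and 47.5 CPM against 36.8 and 40.1 CPM, and melanocyte markers to 27.9 and 13.0 CPM against 23.6 and 12.3 CPM. The fat cell genes Adipoq, Plin1 and Lep had no counts. The 12 proliferation markers summed to 4316 and 2962 CPM on the normal diet and 2579 and 2798 CPM on the high-fat diet, so that the first normal diet library stood above the other 3.

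None of the 8 tested genes passed the test between the diets. By the edgeR quasi-likelihood test at a Benjamini-Hochberg adjusted p under 0.05, 0 were higher and 0 lower on the high-fat diet, where 1.35% of all genes tested were called (1.12% higher and 0.228% lower). At an unadjusted p under 0.05 there were 3, Cdkn1a, Cdkn2b and Cdkn2c, against 13.3% of all genes. DESeq2 called 0 of the 8, where it called 275 genes higher and 119 lower over all. Either limma fit called 0 of the 8 as well. Over all genes each limma fit called only 2 higher and 0 lower, so that result could hardly have differed. DESeq2 and limma each had 3 of the 8 at an unadjusted p under 0.05. The diets did not overlap for 5 of the 8 genes, where 44.6% of all genes tested did not overlap. Log2 fold changes were positive for 4 of the 8, where 50.1% of all genes tested were positive, and the median over all genes tested was 0.0018.

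**Figure D1:**
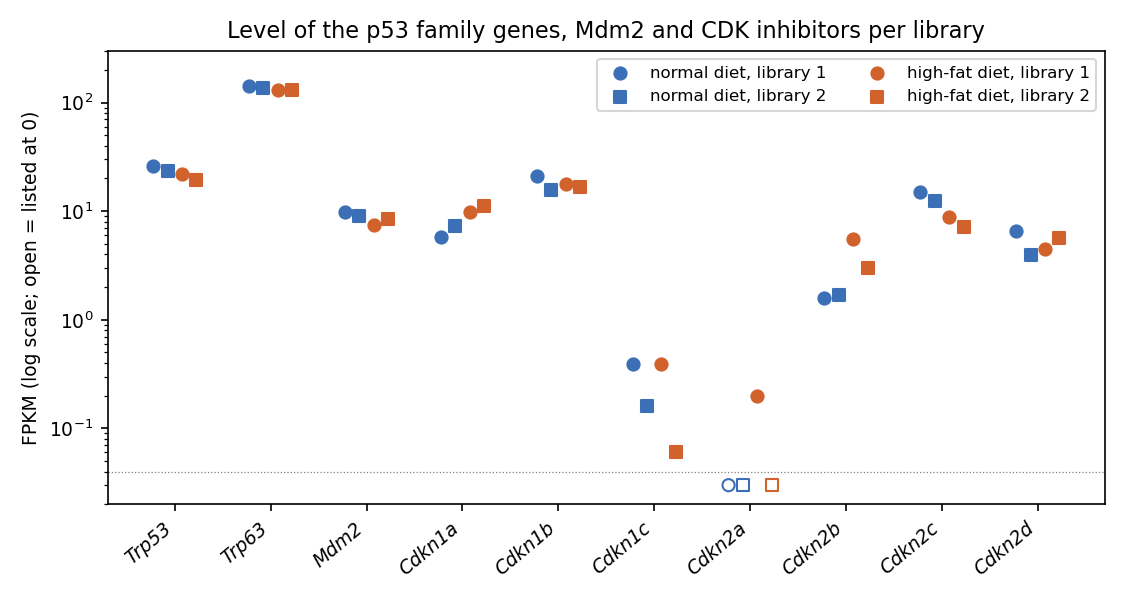
Expression of each gene in each library as FPKM (fragments per exonic length, scaled to each library's total) on a log axis, with circles and squares for the first and second library of a diet and open symbols for a gene listed at 0. Trp63 lies at 129 to 143 FPKM in every library, far above the others, and Cdkn2a is at 0 in 3 of 4 libraries.

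Levels per length ran from near the top of all tested genes to under the floor of detection. Trp63 was the most abundant, at 143 and 135 FPKM on the normal diet and 131 and 129 FPKM on the high-fat diet, which placed it between the 98.4th and the 98.5th percentile of tested genes. With the normal diet the mean FPKM then descended through Trp53 (24.6), Cdkn1b (18.3), Cdkn2c (13.8), Mdm2 (9.45), Cdkn1a (6.58), Cdkn2d (5.23) and Cdkn2b (1.64), and only Cdkn1a and Cdkn2d overlapped as neighbours in that order. With the high-fat diet the order ran Trp53 (20.5), Cdkn1b (17.3), Cdkn1a (10.5), Cdkn2c (8.01), Mdm2 (7.96), Cdkn2d (5.03) and Cdkn2b (4.27). There Cdkn2c overlapped with Mdm2 and Cdkn2d with Cdkn2b. Cdkn1a thus stood below Cdkn2c and Mdm2 on the normal diet and above both on the high-fat diet.

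Trp53 (chromosome 11, positions 69580359 to 69591873, plus strand) stood at 101 and 92.2 CPM on the normal diet and 92.1 and 79.6 CPM on the high-fat diet. The second normal diet library and the first high-fat library were almost level, and the diets were separated only by that narrow gap. The log2 fold change was -0.17 ± 0.15 (SE; edgeR adjusted p = 0.677), and its 95% interval allowed anything from 0.711-fold to 1.11-fold.

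Trp63 (chromosome 16, positions 25683763 to 25892102, plus strand) was the most precisely measured gene of the group, with between 9321 and 11968 counts per library. It stood at 1162 and 1110 CPM against 1146 and 1115 CPM. Both high-fat libraries lay between the normal diet libraries. The fold change was 0.995, with a 95% interval from 0.844-fold to 1.17-fold (edgeR adjusted p = 0.988). The annotation holds 8 transcripts of Trp63, with and without the N-terminal transactivation domain, and counts per gene do not separate them.

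Mdm2 (chromosome 10, positions 117688875 to 117710758, minus strand) stood at 48.0 and 45.4 CPM on the normal diet and 39.5 and 44.0 CPM on the high-fat diet. The diets did not overlap, but the gap between them was narrower than the distance between the high-fat libraries. The log2 fold change was -0.16 ± 0.17 (SE; edgeR adjusted p = 0.752). Per length, the ratio of Mdm2 to Trp53 was 0.377 and 0.392 on the normal diet and 0.341 and 0.440 on the high-fat diet, so the diets overlapped.

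Trp73, the remaining member of the p53 family, was expressed at 107 and 96.9 CPM on the normal diet and at 87.1 and 66.3 CPM on the high-fat diet. All values of the high-fat diet were lower, and the log2 fold change of -0.41 ± 0.16 (SE) did not pass (edgeR adjusted p = 0.291).

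**Figure D2:**
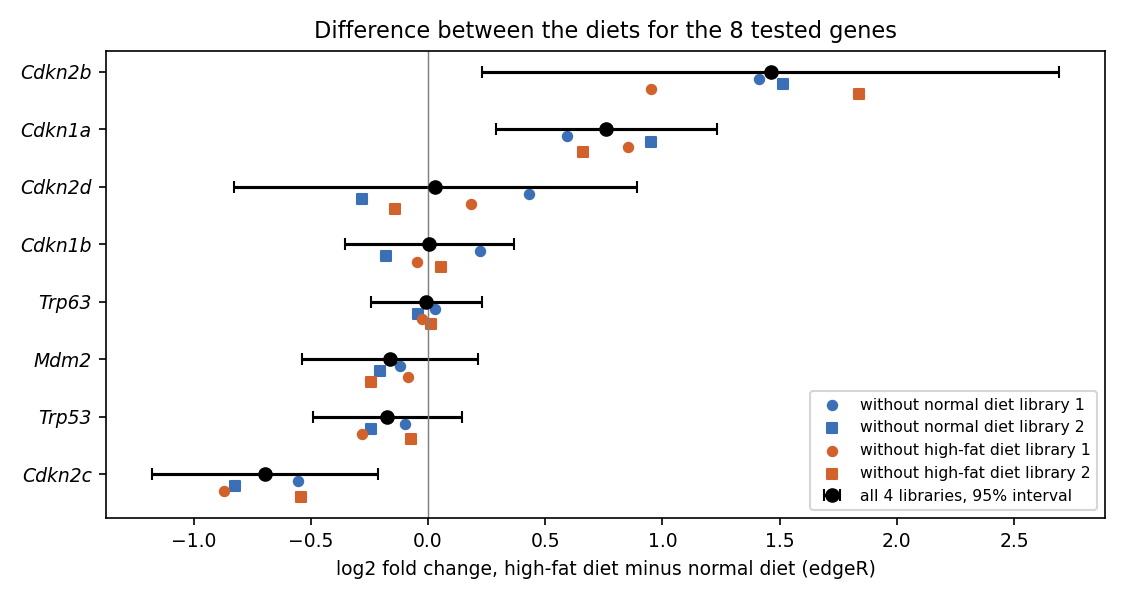
Log2 fold change of each tested gene, high-fat diet minus normal diet, from edgeR on all 4 libraries with its 95% interval (black), and with each library left out in turn (coloured). Cdkn2b, Cdkn1a and Cdkn2c keep their side of 0 whichever library is left out, whereas Trp63, Cdkn1b and Cdkn2d lie on either side of it.

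Cdkn1a, the p21 gene (chromosome 17, positions 29090976 to 29100727, plus strand), had the smallest p-value of the 8. Its counts were 205 and 245 on the normal diet and 303 and 344 on the high-fat diet, or 19.9 and 25.6 CPM against 36.1 and 41.1 CPM. The diets did not overlap, and the gap between them was wider than the distance within either diet. The mean was 22.8 ± 4.06 CPM on the normal diet and 38.6 ± 3.60 CPM on the high-fat diet (SD, n = 2 per diet), a 1.70-fold difference (95% interval 1.22 to 2.35) with a log2 fold change of 0.76 ± 0.22 (SE). It did not pass over all genes (edgeR adjusted p = 0.131). With every gene of at least 1 count retained it did (edgeR adjusted p = 0.049), and over the other alternatives the adjusted p lay between 0.060 with the replicate number as a block and 0.583 without the second high-fat library. The gene overlaps 1700023B13Rik on the other strand, which had 3 counts over all 4 libraries.

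The summed level of the suprabasal markers was ordered over the 4 libraries as Cdkn1a was. It was lowest in the first normal diet library and highest in the second high-fat library. The sums of the immune and endothelial markers had that order too, but singly only 1 of 6 immune and 2 of 4 endothelial markers had it. Of the 8 suprabasal markers, 4 followed that order singly (Krt1, Krt10, Sbsn and Dsg1a) and Krtdap, Ivl, Lor and Flg did not. By edgeR 3 were higher on the high-fat diet and 1 was lower. Krt10, the keratin of spinous cells, stood at 548 and 1158 CPM against 1805 and 2367 CPM (edgeR adjusted p = 0.040), and Krtdap and the desmosomal cadherin gene Dsg1a were higher too. Flg, which encodes filaggrin, went the other way, at 55.2 and 207 CPM against 20.1 and 34.2 CPM, a 0.207-fold difference (edgeR adjusted p = 0.041). Lor, the loricrin gene, overlapped between the diets, at 7.28 and 12.8 CPM against 7.26 and 13.5 CPM. These markers were named after their values were seen. All 4 calls were lost when either normal diet library was left out. So were nearly all calls over all genes, so such a loss says little about these 4. That of Krt10 was also lost without the second high-fat library, and those of Krtdap and Flg without the first. With 1 library left out, log2 fold changes ran from 0.82 to 1.46 for Krtdap and from 1.47 to 1.75 for Dsg1a. DESeq2 did not call Krt10 or Flg (adjusted p = 0.275 and 0.219). Flg had a log2 fold change of -2.27, or -1.03 with the second normal diet library left out, and that of Krt10 was 1.29, or 0.85 with the first left out. The part of these cells in the Cdkn1a difference was not tested, and in bulk RNA a changed number of cells of a type and a changed amount of RNA per cell cannot be told apart. The genes whose log2 CPM, centred over the 4 libraries, lay nearest to that of Cdkn1a among 12254 candidates were Fam83g (distance 0.063), Ntn4 (0.066) and Parp14 (0.070). Fam83g stood at 86.3 and 112 CPM against 160 and 172 CPM.

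Cdkn1b, the p27 gene (chromosome 6, positions 134920401 to 134925513, plus strand), was the most abundant CDK inhibitor per length in all 4 libraries. It stood at 91.8 and 69.8 CPM on the normal diet and 84.0 and 78.3 CPM on the high-fat diet. Both high-fat diet values lay between the normal diet values. The log2 fold change was 0.0059 ± 0.16 (SE; edgeR adjusted p = 0.994), and its 95% interval ran from 0.782-fold to 1.29-fold.

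Cdkn1c, the imprinted p57 gene (chromosome 7, positions 143458339 to 143461050, minus strand), had 8 and 3 counts on the normal diet and 7 and 1 on the high-fat diet. It was too low to test. From the summed 11 and 8 counts the ratio of the high-fat to the normal diet was 0.861, with an exact 95% binomial interval from 0.301 to 2.35 that covers counting error only.

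Summed per length, the 3 Cip/Kip genes stood at 27.1 and 23.2 FPKM on the normal diet and 27.9 and 28.1 FPKM on the high-fat diet. Cdkn1a made up 21.4% and 31.8% of that sum on the normal diet and 35.0% and 40.1% on the high-fat diet. The ratio of Cdkn1b to Cdkn1a was 3.60 and 2.13 against 1.82 and 1.49. These values of the diets did not overlap, and with 2 libraries against 2 the exact two-sided permutation test cannot go below its value here of 0.333. Against its fellow p53 target, Cdkn1a stood at 0.593 and 0.807 times Mdm2 on the normal diet and 1.30 and 1.34 times on the high-fat diet (exact permutation p = 0.333).

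**Figure D3:**
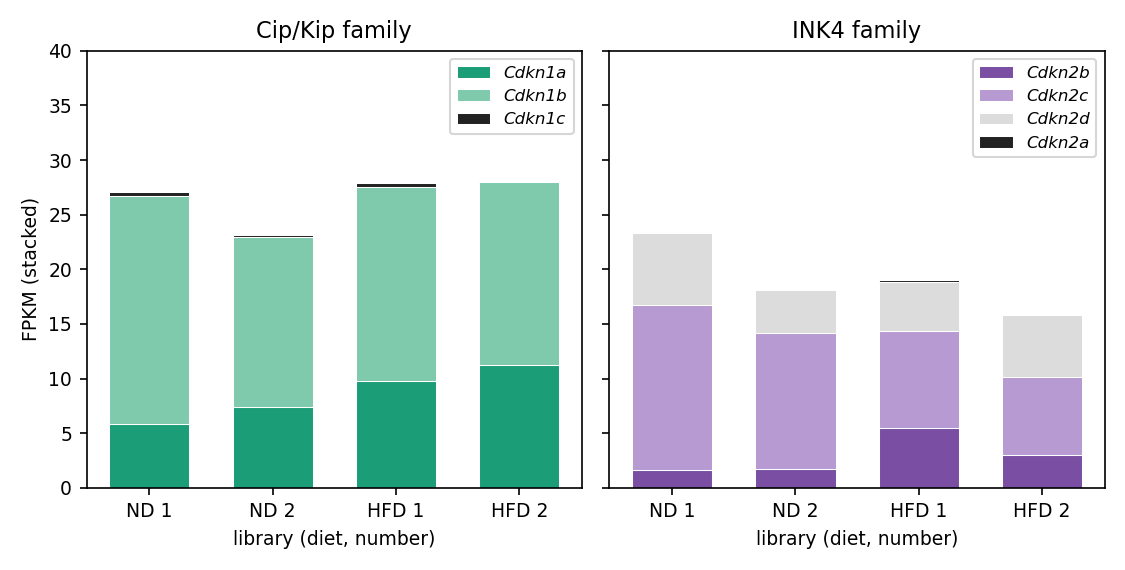
Stacked FPKM of the Cip/Kip genes (left) and the INK4 genes (right) in each normal diet (ND) and high-fat diet (HFD) library. The bars reach 23.2 to 28.1 FPKM on the left and 15.8 to 23.3 FPKM on the right, and Cdkn2b fills 6.83% and 9.36% of the INK4 bars on the normal diet against 29.0% and 19.1% on the high-fat diet.

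Cdkn2a (chromosome 4, positions 89274471 to 89294653, minus strand) was listed at 0 in both normal diet libraries and in the second high-fat library, and had 2 counts in the first high-fat library. A count of 0 allows up to 3 counts, which at this depth is 0.257 to 0.298 FPKM, so every library lay under that floor and no fold is given. Both annotated transcripts, for p16 and for ARF, share this row, and since Cdkn2a and Cdkn2b arose by duplication, similar reads could have been split between them.

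Cdkn2b, the p15 gene (chromosome 4, positions 89306299 to 89311039, minus strand), is the neighbour of Cdkn2a and a known target of TGF-beta signalling. Its counts were 22 and 22 on the normal diet and 67 and 36 on the high-fat diet, or 2.14 and 2.30 CPM against 7.97 and 4.31 CPM. The normal diet libraries were nearly equal, and the first high-fat library stood well above the second. The mean was 2.22 ± 0.118 CPM against 6.14 ± 2.59 CPM (SD, n = 2 per diet), a 2.76-fold difference whose 95% interval ran from 1.17 to 6.47. The log2 fold change of 1.46 ± 0.56 (SE) did not pass (edgeR adjusted p = 0.278; 0.174 to 0.909 over the alternatives). It was 0.95 without the first high-fat library and 1.84 without the second. The summed fibroblast markers and the summed bulge markers were ordered over the libraries as Cdkn2b was, though 6 of the 10 bulge markers had negative log2 fold changes. An order of only 4 libraries is easily shared and points to no cell type. The part of the cell mixture in the Cdkn2b difference was not tested.

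Cdkn2c, the p18 gene (chromosome 4, positions 109660876 to 109667189, minus strand) and a known E2F target, differed in the other direction. It had 405 and 313 counts on the normal diet and 208 and 165 on the high-fat diet, or 39.3 and 32.8 CPM against 24.7 and 19.7 CPM. All high-fat diet values lay below the normal diet values. The mean was 36.0 ± 4.65 CPM against 22.2 ± 3.55 CPM (SD, n = 2 per diet), a 0.617-fold difference with a 95% interval from 0.442 to 0.861. The log2 fold change of -0.70 ± 0.22 (SE) did not pass (edgeR adjusted p = 0.189; 0.089 to 0.687 over the alternatives). Proliferation markers were highest in the first normal diet library, as Cdkn2c was. Without that library the log2 fold change of Cdkn2c was -0.55, and the part of proliferation in it was not tested.

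Cdkn2d, the gene of the INK4 protein p19 (chromosome 9, positions 21288410 to 21291407, minus strand), stood at 9.91 and 6.07 CPM on the normal diet and 7.26 and 9.09 CPM on the high-fat diet. The diets overlapped. The log2 fold change was 0.03 ± 0.39 (SE; edgeR adjusted p = 0.987), and its wide 95% interval, 0.563-fold to 1.85-fold, covers the difference measured for Cdkn1a.

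The INK4 sum was 23.3 and 18.1 FPKM on the normal diet and 19.0 and 15.8 FPKM on the high-fat diet, and overlapped between the diets. The shares of Cdkn2b and Cdkn2c in it did not overlap. Cdkn2c took 65.2% and 68.9% of it on the normal diet and 46.6% and 45.3% on the high-fat diet. The ratio of Cdkn2b to Cdkn2c per length, which does not depend on library scaling, was 0.105 and 0.136 on the normal diet and 0.622 and 0.421 on the high-fat diet (exact two-sided permutation p = 0.333, the smallest possible for 2 against 2). The 7 CDK inhibitors together stood at 45.8 ± 6.46 FPKM on the normal diet and 45.4 ± 2.18 FPKM on the high-fat diet (SD, n = 2), a difference within the spread between libraries.

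Of 34 tested genes listed here as p53 targets, Cdkn1a and Mdm2 included, 0 were called in either direction by edgeR. At an unadjusted p under 0.05 there were 6. The count holds for this list only, and Igfbp3, which was called, was placed in the senescence list below and not here. Log2 fold changes were positive for 16 and negative for 18, and their median was -0.02, beside 0.0018 over all genes tested. The gene with the smallest p was Perp, a desmosomal protein that p63 also activates, at 1060 and 1013 CPM against 1444 and 1349 CPM. All of its high-fat diet values were higher, yet its log2 fold change of 0.43 ± 0.11 (SE) missed the threshold (edgeR adjusted p = 0.091). Leaving out the second library of the normal or of the high-fat diet moved the median to 0.09 or 0.12. Among 19 regulators of p53, Mdm4, Atm and Chek2 among them, 0 were called (2 at an unadjusted p under 0.05), and the median was 0.00084, with either sign over the alternatives (-0.1025 with equal sums of TPM to 0.089 without the first high-fat library). Kat5, an acetyltransferase that acts on p53, had the smallest p, with 26.8 and 22.9 CPM against 33.9 and 45.3 CPM (edgeR adjusted p = 0.200).

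Targets of p63 in keratinocytes lay mostly on the positive side, while Trp63 itself differed by less than its spread. Of 24 tested genes 2 were higher and 0 lower by edgeR, where 1.12% and 0.228% of all genes tested were. At an unadjusted p under 0.05 there were 13, against 13.3% of all genes. A positive log2 fold change was found for 20, where 50.1% of all genes were positive, and the median was 0.36. Dsp, the desmoplakin gene, stood at 3730 and 4633 CPM against 7061 and 7114 CPM and rose 1.70-fold (edgeR adjusted p = 0.013), and Krt14, the basal keratin gene, stood at 2990 and 3833 CPM against 6048 and 5004 CPM and rose 1.62-fold (edgeR adjusted p = 0.033). The call for Dsp was lost when any 1 library was left out. That for Krt14 was lost without the first or second normal diet library or the first high-fat library. Leaving out a normal diet library ended nearly all calls over all genes as well. With 1 library left out, log2 fold changes ran from 0.62 to 0.92 for Dsp and from 0.53 to 0.88 for Krt14. The median of the list was 0.23 without the first normal diet library. The summed suprabasal markers were also higher on the high-fat diet, as given above, and their part was not tested.

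**Figure D4:**
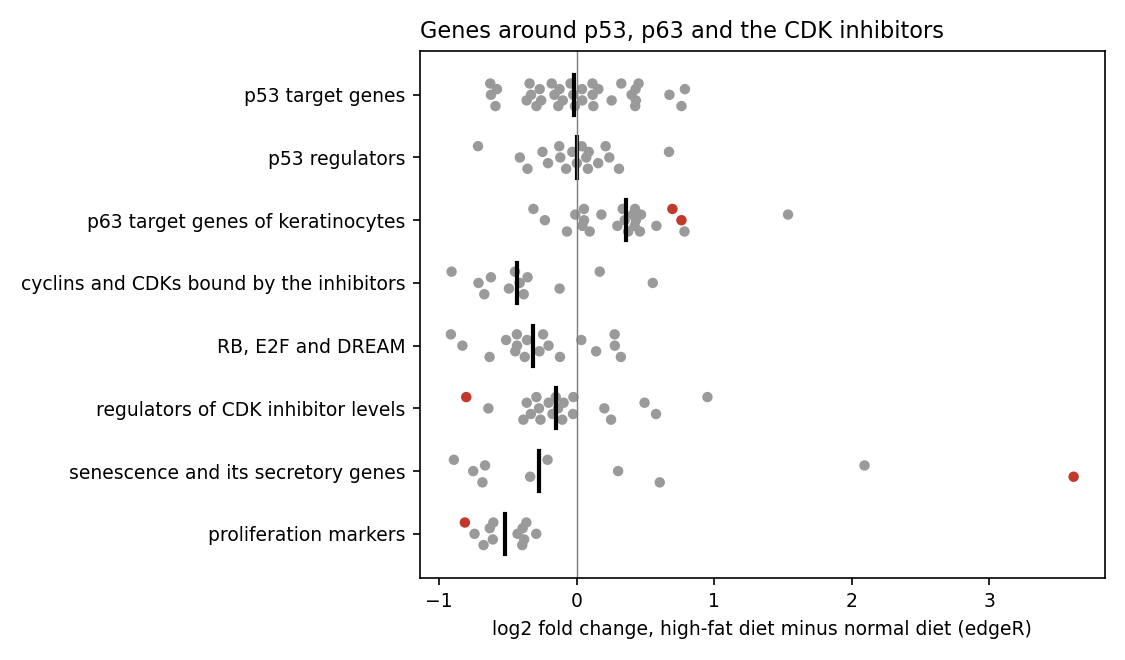
Log2 fold change, high-fat diet minus normal diet, of every tested gene in 8 lists (points; red for genes called by edgeR) with the median of each list (black bar). Medians range from -0.52 for proliferation markers to 0.36 for p63 targets, and 5 genes are called in all.

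The cyclins and CDKs that these inhibitors bind had 0 of 12 genes called by edgeR (8 at an unadjusted p under 0.05), with 10 negative log2 fold changes and a median of -0.43. The D-type cyclins, partners of Cdk4 and Cdk6, differed among themselves. Ccnd1 stood at 355 and 237 CPM on the normal diet and 162 and 200 CPM on the high-fat diet, whereas Ccnd2 stood at 192 and 214 CPM against 298 and 298 CPM. Neither passed, with log2 fold changes of -0.71 ± 0.18 and 0.55 ± 0.12 (SE; edgeR adjusted p = 0.093 and 0.052). Of 18 genes of the RB and E2F families and the DREAM complex, 0 were called by edgeR (6 at an unadjusted p under 0.05) and 13 were negative. They include activators as well as repressors of cell cycle genes, so their median gives no direction of arrest. That median was -0.32, or -0.07 when the first normal diet library was left out and -0.18 when the first high-fat library was. The repressor E2f7 had the smallest p there, at 36.0 and 28.3 CPM against 19.3 and 14.8 CPM (edgeR adjusted p = 0.106), and the chaperone gene Rbbp4 came next (log2 fold change -0.43 ± 0.13, SE; adjusted p = 0.164). In the proliferation markers, 12 of 12 were negative, with 9 at an unadjusted p under 0.05 by edgeR. Their median was -0.52, or -0.26 once the first normal diet library was left out. Of them 1 was lower, Cdc20, at 116 and 95.7 CPM against 63.9 and 56.7 CPM (edgeR adjusted p = 0.033). Its call was lost with equal sums of TPM (edgeR adjusted p = 0.092) and when any 1 library was left out. Without a normal diet library nearly all calls over all genes were lost as well. With 1 library left out, the log2 fold change of Cdc20 ran from -0.95 to -0.66.

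Among 21 tested regulators of CDK inhibitor levels, with 5 at an unadjusted p under 0.05 by edgeR, 1 was lower and 0 were higher. It was Bmi1, the Polycomb gene whose product is known to repress Cdkn2a. Bmi1 stood at 64.3 and 67.5 CPM on the normal diet and 36.3 and 39.2 CPM on the high-fat diet, and fell by 0.80 ± 0.16 (SE) on the log2 scale (edgeR adjusted p = 0.040). Libraries of a diet were close together, yet the call was lost with scaling to equal sums of TPM (edgeR adjusted p = 0.1003). It was also lost when any 1 library was left out, as nearly all calls over all genes were without a normal diet library. With 1 library left out, Bmi1 kept a log2 fold change between -0.86 and -0.75. Its target Cdkn2a was under the floor in every library, as given above. The list joins genes that raise and genes that lower CDK inhibitors, so its median gives no direction for the inhibitors. That median was -0.15, with 16 of 21 genes negative. It was -0.24 without the second normal diet library, -0.24 with library totals, -0.25 with equal sums of TPM and -0.23 with limma on log2(FPKM + 0.1).

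Of 19 genes of senescence and its secretory programme only 10 were abundant enough to test, and Il6, Cxcl1, Cxcl2, Ccl2, Ccl8, Gdf15, Il1a, Il1b and Tnf were not. By edgeR 1 was higher and 0 were lower, with 5 at an unadjusted p under 0.05. The gene higher was Igfbp3, which binds insulin-like growth factors, at 6.12 and 19.3 CPM against 155 and 154 CPM (edgeR adjusted p = 9.26e-04), a log2 fold change of 3.61. Leaving out the first normal diet library gave 3.005 and ended the call, as it ended every call over all genes. Leaving out the second gave 4.65. The lamin gene Lmnb1, whose loss is a common senescence marker, was chosen after its values were seen. It stood at 377 and 269 CPM on the normal diet and 200 and 202 CPM on the high-fat diet. Like the summed proliferation markers, it was highest in the first normal diet library, and the part of proliferation in its difference was not tested. Its log2 fold change of -0.69 ± 0.16 (SE) missed the threshold (edgeR adjusted p = 0.060). The median of the list was -0.28, or -0.13 without the second normal diet library, and 6 of 10 genes were negative. The list joins secretory genes with markers of loss such as Lmnb1, so neither value gives a direction of senescence. The 5 genes called in these lists were not called by limma on log2(FPKM + 1), which called 2 genes in all.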

How the data were processed

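RNA-seq libraries of 4 hair follicle stem cell samples were grouped by the diet in their labels, 2 per diet. The authors deposited whole-number counts per gene and, beside them, FPKM values. All 221604 deposited FPKM equal the count divided by exonic size and column total, within 0.005. HISAT2 2.0.1, cutadapt 1.9.1 and bcl2fastq 2.17.1.14 were used, per the submitters' processing notes, in roles not stated. Which program counted, whether it used strand, and the build were not given in the sources used here. All 10 genes have the same position in GENCODE M21 (GRCm38), as do 99.4% of shared identifiers. Libraries of 1 diet differed beyond sampling noise (chi-square over its degrees of freedom 13.9 and 6.53).

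Counts were tested in R 4.3.3 with edgeR 4.0.16 (quasi-likelihood, TMM, expression filter at 10 counts in 2 libraries and 15 in total, no replicate term), with Benjamini-Hochberg adjustment over 14479 genes and a threshold of 0.05. A gene could pass the filter through 1 diet alone. DESeq2 1.42.0, limma 3.58.1 on log2(FPKM + 1) and log2(FPKM + 0.1), other scalings and filters, a threshold of 0.10, a block for replicate number and the omission of each library were alternatives. Standard errors are the log2 fold change divided by the root of F, and 95% intervals use the test's degrees of freedom. The test draws each gene's spread towards a trend over all genes, which adds to those degrees of freedom. Scripts were tested on simulated counts. The genes and the lists around them were chosen with earlier results of these data known, and Perp, Gdf15, Cdkn1a and Mdm2 each stand in more than 1 of them. Named genes are all 10, the genes of each list that were called (or, with none called, the 2 of smallest p) and the 3 nearest in pattern to the gene of smallest p, with a mean FPKM of at least 1. Promoter motifs were chosen after values and sequences were seen.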

Additional observations from a re-analysis of the deposited data

How the results depend on the processing

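With 2 libraries per diet the calls are few and depend on each library. The count of the 10 genes called stayed at 0 lower under every alternative and at 0 higher under all but the filter of 1 count, which gave 1 (Cdkn1a). Over all genes, 162 higher and 33 lower became 88 and 3 with equal sums of TPM, 408 and 225 with the filter of 1 count, 275 and 119 with DESeq2, 2 and 0 with either limma fit and 280 and 101 at 0.10. The lower count was 65 with library totals and 70 with 10 counts in every library. Leaving out 1 library gave 0 to 81 higher and 0 to 2 lower. In the pathway lists, 3 higher and 2 lower became 14 and 14 with the filter of 1 count, 6 and 6 with 10 counts in every library, 12 and 8 with DESeq2, 0 and 0 with either limma fit and 10 and 7 at 0.10, and the lower count was 4 with library totals and 0 with equal sums of TPM. Leaving out 1 library gave 0 to 2 higher and 0 lower. Calls were 83.1% higher in the fit reported, 67.0% with library totals and 96.7% with equal sums of TPM. The labels do not say that replicate numbers pair the libraries. Those numbers are from the sample titles, and the deposited columns number the high-fat libraries otherwise than the normal diet libraries. Same-numbered deviations had a correlation of -0.0046. With the number as a block 308 and 111 genes were called, 7 and 10 in the lists and 0 of the 10 genes. The sign of 3 genes near 0 changed. Trp63 was at 0.0033 with 10 counts in every library and at -0.043 to 0.029 with 1 library left out. Cdkn1b was at -0.082 with library totals or equal sums of TPM, -0.0049 with the filter of 1 count, -0.064 and -0.067 with limma and -0.18 to 0.22 with 1 library left out. Cdkn2d was at -0.057 with library totals, -0.059 with equal sums of TPM, -0.021 and -0.019 with limma and -0.28 to 0.43 with 1 library left out. The cause of these changes was not tested.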
